A study of Cricetulus griseus with 9 samples.

Results

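The microRNA processing and silencing machinery was followed through 10 genes, Dicer1, Drosha, Dgcr8, Ago1, Ago2, Ago3, Ago4, Tnrc6a, Tnrc6b and Tnrc6c, chosen by mouse Ensembl identifier from a table of 15557 genes. All 10 identifiers had a row. The symbols are those given with the list of identifiers, since the deposited table holds identifiers alone. The cells were CHO-K1, an established Chinese hamster ovary line grown in charcoal-stripped serum and harvested 48 h after transfection with a cationic lipid, in 3 groups of 3 libraries. One group received pre-miR-29b-1 and one pre-miR-29a, synthetic precursors that add the microRNA they are named for. The third received anti-miR-29a, an inhibitor that the submitters describe as blocking both miR-29a and miR-29b-1. Untreated cells and cells with a control RNA were not analysed here, so a difference between a pre-miR and the anti-miR can come from either side. Per the labels' protocols the submitters checked the rise or fall of the microRNAs by quantitative PCR; mature microRNAs are not among the gene models counted here. The comparisons ask whether the machinery on which miR-29 depends was itself at another level when miR-29 was raised or blocked, and whether the pre-miRs differed in this.

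A microRNA is cut from its primary transcript in the nucleus by the Microprocessor, in which the nuclease Drosha works with the RNA-binding protein Dgcr8. The nuclease Dicer1 then trims the exported hairpin to a short duplex. An Argonaute protein (Ago1 to Ago4) takes up 1 strand and is guided by it to target mRNAs, and of these Ago2 is the one in mammals known for efficient slicing of fully paired targets. GW182 proteins (Tnrc6a, Tnrc6b and Tnrc6c) bind the Argonaute and bring in the deadenylation machinery that silences the target. In human and mouse cells Drosha also cleaves hairpins in the Dgcr8 mRNA, so that the Microprocessor lowers the message of its own subunit.

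Levels are given in FPKM, fragments per kilobase of gene model scaled for library size. Low values of long genes fell in steps of 1 read, which gave an implied depth of 15100000 to 20780000 reads per library (15100000 to 17750000 with anti-miR-29a). Apart from Ago1, each gene rested on 221 to 5350 implied reads per library, so that counting alone gives an error of 1.72% for Drosha to 6.73% for Ago3 in the library where each had fewest reads. In such bulk samples, fewer cells of a kind and less RNA per cell cannot be told apart. Cultures were in triplicate, but the labels do not state whether each library of a group had its own culture, so p-values reflect library-to-library spread that may be technical in part. Nor does the series text settle whether a transfection experiment held all 3 molecules. If each held 1, experiment and molecule cannot be told apart in any comparison with anti-miR-29a or between the pre-miRs.

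Drosha was the most abundant of the 10 transcripts in FPKM, and very few reads were counted on the Ago1 model. Over all 9 libraries Drosha averaged 59.7 FPKM and exceeded the next gene, Ago2 at 21.4 FPKM, in 9 of 9 libraries. Tnrc6a (15.0 FPKM), Dgcr8 (14.9 FPKM) and Dicer1 (12.4 FPKM) followed, then Tnrc6b (10.4 FPKM), Ago4 (8.19 FPKM), Ago3 (6.62 FPKM) and Tnrc6c (5.78 FPKM). In mean level Drosha exceeded 63.2% of the tested genes and Tnrc6c 10.6%, and the other 7 tested genes lay between 11.9% (Ago3) and 33.2% (Ago2). Some neighbours in this order changed places between libraries. Tnrc6a exceeded Dgcr8 in 5 of 9 libraries, Ago4 exceeded Ago3 in 6 of 9 and Ago3 exceeded Tnrc6c in 5 of 9, so these pairs have no fixed order over all libraries. For Tnrc6a with Dgcr8 and for Ago4 with Ago3 the order differed between the pre-miR and anti-miR-29a libraries, as given below. Dgcr8 exceeded Dicer1 in 8 of 9 libraries, and for the remaining neighbours the order held in 9 of 9.

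**Figure D1:**
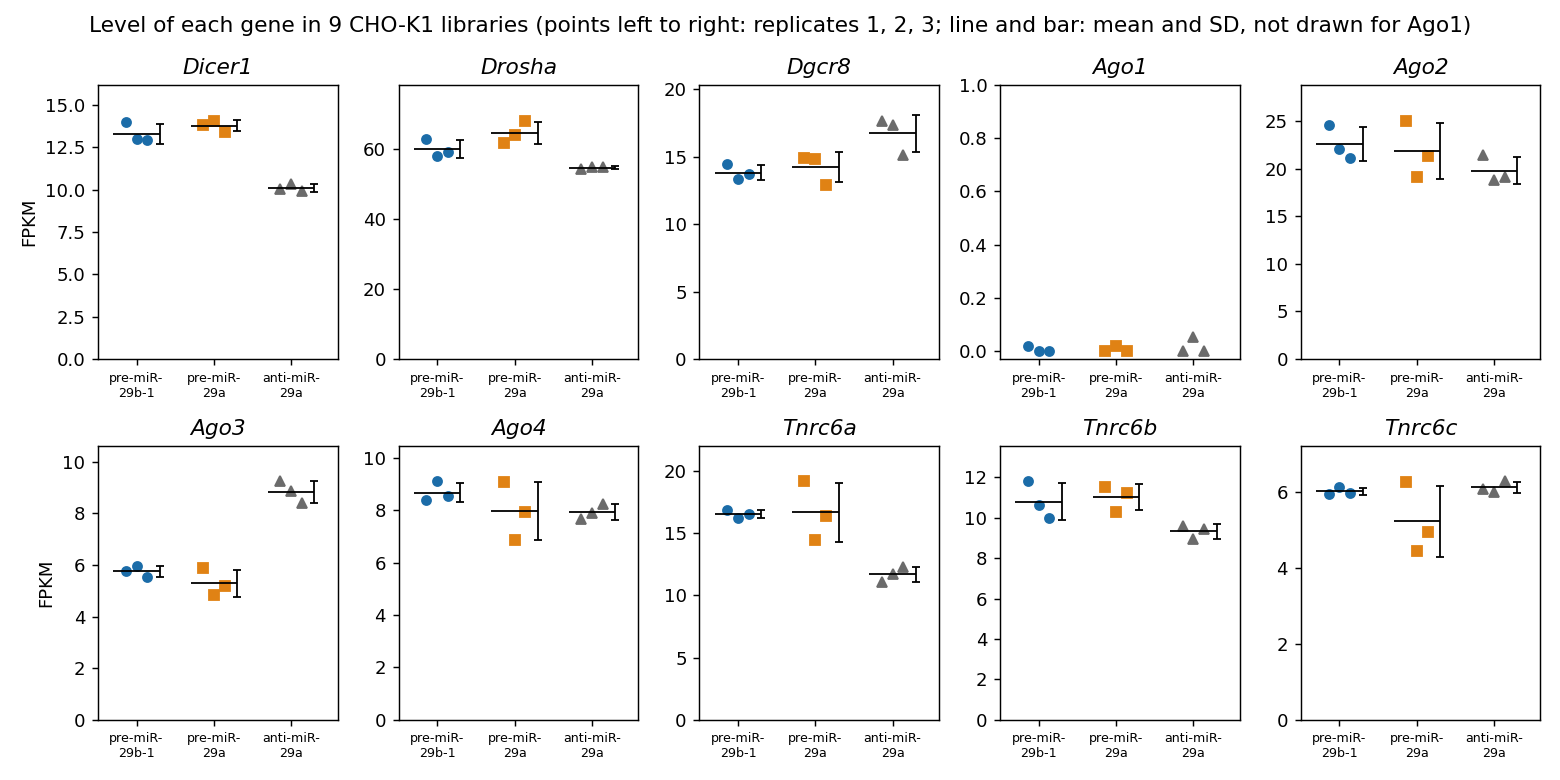
FPKM of each of the 10 genes (vertical axes from 0, own scale per gene, the Ago1 axis from just below 0 to 1 FPKM) in every library of the pre-miR-29b-1, pre-miR-29a and anti-miR-29a groups, with mean and SD (n = 3, not drawn for Ago1). Dicer1 and Tnrc6a sit above the anti-miR-29a libraries in all 6 pre-miR libraries, Ago3 and Dgcr8 below them, and Ago1 lies at or near 0 in all 9.

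Tests were made with limma on log2(FPKM + 1) over the 9504 genes that averaged 1 FPKM or more across libraries, which kept 9 of the 10 genes and left out Ago1. On this scale the change of a weakly expressed gene comes out too small. A gene was called at a Benjamini-Hochberg adjusted p under 0.05. With pre-miR-29b-1 relative to anti-miR-29a, 4 of the 9 genes were called, where 55.2% of all tested genes were. Of these genes 2 were higher and 2 lower, where 25.8% of all tested genes were higher and 29.4% lower. With pre-miR-29a, 6 of 9 were called, where 58.4% of all tested genes were, and 4 were higher and 2 lower, where 27.5% of all tested genes were higher and 30.9% lower. Both shares lie near those of all genes, so the number of calls is not a feature of this machinery. The libraries did not overlap for 7 of 9 genes with pre-miR-29b-1, against 67.6% of all tested genes, and for 6 of 9 with pre-miR-29a, against 62.2% of all tested genes. The 3 anti-miR-29a libraries serve both comparisons. The median absolute log2 fold change of the 9 genes was 0.19 for pre-miR-29b-1, where that over all tested genes was 0.24, and for pre-miR-29a it was 0.22, where that over all tested genes was 0.26. The median signed change was 0.13 for the 9 genes with either pre-miR, where that over all tested genes was -0.006 for pre-miR-29b-1 and -0.016 for pre-miR-29a.

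**Figure D2:**
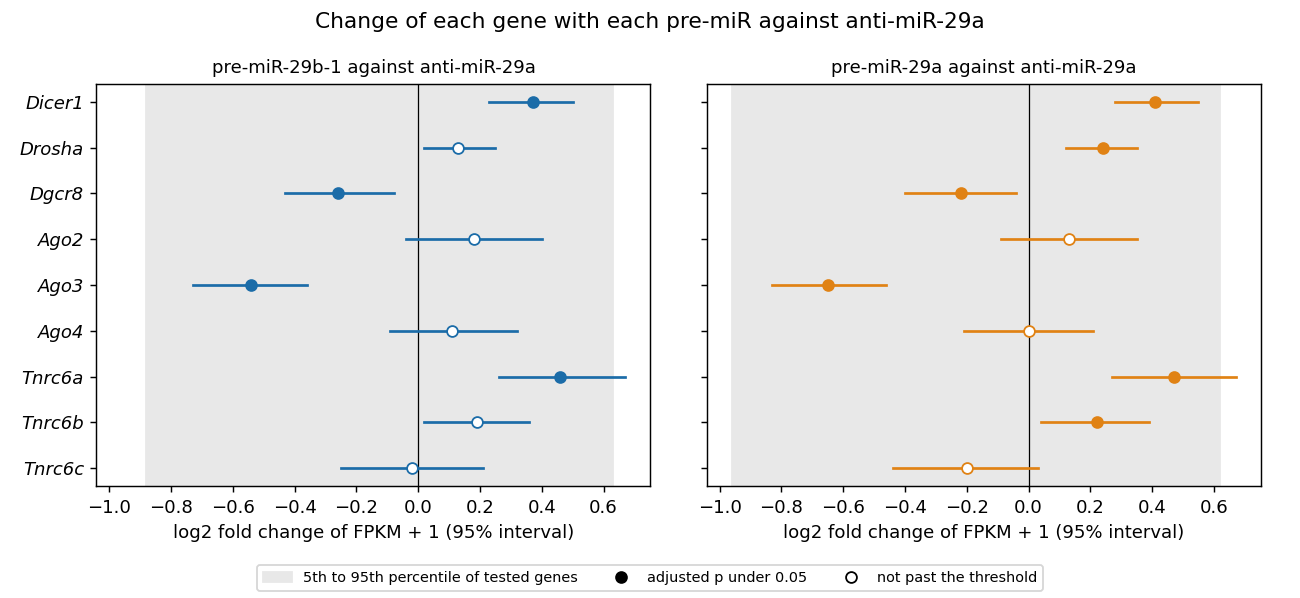
Log2 fold change of FPKM + 1 with its 95% interval (horizontal axis) for the 9 tested genes (vertical axis), relative to anti-miR-29a, with pre-miR-29b-1 on the left and pre-miR-29a on the right, with n = 3 libraries a group. Filled points passed an adjusted p of 0.05 (limma), open points did not, and the grey band holds the 5th to 95th percentile of tested genes (-0.88 to 0.63 on the left, -0.96 to 0.62 on the right). All points lie inside the band, with Ago3 farthest to the left and Tnrc6a farthest to the right.

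Of the genes that make microRNAs, Dicer1 was higher with either pre-miR, Drosha was called higher with pre-miR-29a, and Dgcr8 was lower with either. Dicer1 (ENSMUSG00000041415), the cytoplasmic nuclease, stood at 13.97, 12.98 and 12.9 FPKM with pre-miR-29b-1, at 13.8, 14.1 and 13.4 FPKM with pre-miR-29a, and at 10.01, 10.4 and 9.91 FPKM with anti-miR-29a. The lowest pre-miR library was above the highest anti-miR-29a library. Mean FPKM was 31.7% higher with pre-miR-29b-1 and 36.5% higher with pre-miR-29a than with anti-miR-29a. The log2 fold change was 0.37 (limma, SE 0.0597, adjusted p 0.00056) with pre-miR-29b-1 and 0.41 (SE 0.0597, adjusted p 0.00022, limma) with pre-miR-29a.

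Drosha (ENSMUSG00000022191), the nuclear nuclease, stood at 62.7, 57.9 and 59.1 FPKM with pre-miR-29b-1, at 61.6, 64.0 and 68.0 FPKM with pre-miR-29a, and at 54.2, 54.8 and 54.8 FPKM with anti-miR-29a. The anti-miR-29a libraries lay close together and below every pre-miR library. Mean FPKM was 9.73% above the anti-miR-29a mean with pre-miR-29b-1 and 18.2% above it with pre-miR-29a. The change passed the threshold with pre-miR-29a (log2 fold change 0.24, SE 0.0516, adjusted p 0.00304, limma). It missed it narrowly with pre-miR-29b-1 (0.13, SE 0.0516, adjusted p 0.0538, limma), and 6 of 16 alternative settings put it past the threshold. That Drosha passed with 1 pre-miR alone does not show a difference between them, and the log2 difference of pre-miR-29b-1 from pre-miR-29a did not pass at -0.10 (95% interval -0.22 to 0.01, adjusted p 0.335, limma). Under array weights it did, at -0.19 (adjusted p 0.00504, limma), in a setting in which 38.2% of all tested genes were called.

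Dgcr8 (ENSMUSG00000022718), the RNA-binding partner of Drosha, stood at 14.5, 13.3 and 13.7 FPKM with pre-miR-29b-1, at 14.9, 14.8 and 12.9 FPKM with pre-miR-29a, and at 17.7, 17.3 and 15.1 FPKM with anti-miR-29a. The pre-miR libraries did not overlap the anti-miR-29a libraries, but the highest pre-miR library and the lowest anti-miR-29a library were close, at 14.9 and 15.1 FPKM. Mean FPKM fell by 17.3% with pre-miR-29b-1 and fell by 15.0% with pre-miR-29a, relative to anti-miR-29a. The log2 fold change was -0.26 (limma, SE 0.0799, adjusted p 0.0208) with pre-miR-29b-1 and -0.22 (SE 0.0799, adjusted p 0.0374, limma) with pre-miR-29a. The call for pre-miR-29b-1 was lost in 4 of 16 settings, all of which dropped 1 library: adjusted p was 0.0732 without pre-miR-29b-1 replicate 2, 0.0565 without its replicate 3, 0.0733 without anti-miR-29a replicate 1 and 0.0701 without anti-miR-29a replicate 2 (limma). For pre-miR-29a it was lost in 8 of 16, with adjusted p of 0.138 without pre-miR-29a replicate 3, 0.121 without anti-miR-29a replicate 1, 0.109 without anti-miR-29a replicate 2 and up to 0.235 under 5 other settings (limma). The value stayed below 0 throughout, and was weakest under quantile normalization, at -0.11 for pre-miR-29a.

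Among the Argonautes, Ago3 fell with either pre-miR, Ago2 and Ago4 did not pass the threshold, and Ago1 was at the limit of detection. Ago3 (ENSMUSG00000028842) stood at 5.76, 5.96 and 5.53 FPKM with pre-miR-29b-1, at 5.87, 4.82 and 5.18 FPKM with pre-miR-29a, and at 9.23, 8.88 and 8.38 FPKM with anti-miR-29a. All pre-miR libraries were below 6 FPKM and all anti-miR-29a libraries above 8 FPKM. Mean FPKM fell by 34.9% with pre-miR-29b-1 and fell by 40.1% with pre-miR-29a relative to anti-miR-29a. On the log2 scale the fold change was -0.54 (limma, SE 0.0835, adjusted p 0.000388) with pre-miR-29b-1 and -0.65 (SE 0.0835, adjusted p 0.000102, limma) with pre-miR-29a. Of all tested genes, 80.6% changed less in absolute terms for pre-miR-29b-1 and for pre-miR-29a 84.7% did, which makes Ago3 the gene of the machinery with the largest change in both comparisons.

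Ago2 (ENSMUSG00000036698), the slicing Argonaute, had the highest FPKM of the 4 in every library. It stood at 24.6, 22.1 and 21.2 FPKM with pre-miR-29b-1 and at 25.1, 19.2 and 21.4 FPKM with pre-miR-29a. With anti-miR-29a it stood at 21.4, 18.9 and 19.2 FPKM. The groups overlapped, and the spread within the pre-miR-29a group covered most of the range. In log2 terms the change was 0.18 (limma, 95% interval -0.04 to 0.40, adjusted p 0.141) with pre-miR-29b-1 and 0.13 (95% interval -0.09 to 0.35, adjusted p 0.277, limma) with pre-miR-29a. The intervals include no change and also a rise of up to 1.32-fold with pre-miR-29b-1 and 1.27-fold with pre-miR-29a. After quantile normalization Ago2 passed the threshold, at 0.25 for pre-miR-29b-1 (adjusted p 0.0268, limma) and at 0.24 for pre-miR-29a (adjusted p 0.0293, limma). Under array weights it passed for pre-miR-29b-1 (0.18, adjusted p 0.0223, limma). With the replicate block, given at the end, Ago2 passed in 3 of 16 alternative settings for pre-miR-29b-1. For pre-miR-29a it passed in 1 of 16.

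Ago4 (ENSMUSG00000042500), which like Ago1 and Ago3 silences through its GW182 partner, stood at 8.38, 9.10 and 8.55 FPKM with pre-miR-29b-1, at 9.08, 6.87 and 7.93 FPKM with pre-miR-29a, and at 7.66, 7.91 and 8.25 FPKM with anti-miR-29a. With pre-miR-29b-1 all libraries were above those with anti-miR-29a by a narrow margin, while the pre-miR-29a libraries lay on both sides. Its log2 change was 0.11 (limma, 95% interval -0.09 to 0.32, adjusted p 0.322) with pre-miR-29b-1 and 0.00 (95% interval -0.21 to 0.21, adjusted p 0.981, limma) with pre-miR-29a. In no alternative setting did Ago4 pass the threshold in either comparison.

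Ago1 (ENSMUSG00000041530) was listed at 0.0187, 0 and 0 FPKM with pre-miR-29b-1, at 0, 0.0205 and 0 FPKM with pre-miR-29a, and at 0, 0.0515 and 0 FPKM with anti-miR-29a. These values stand for 1.03, 1.02 and 2.05 implied reads in the 3 libraries above 0. A count of 0 allows up to 3 reads, or 0.0547 to 0.0753 FPKM depending on the library, for counting error alone, and every value lay under this limit. No fold change is given for Ago1. Its model is listed 4 times with identical exons, and 47 genes in the annotation are listed in this way without sharing bases with another gene. Of these 47 genes, 19 had a mean of at least 1 FPKM. The same held for 1811 of the 2846 genes listed with several identical models, and for 6954 of the 10595 genes with 1 model, all without shared bases. The share was thus lower among genes listed 4 times, and the reason was not tested. Whether reads of hamster Ago1 could be placed on this model was not tested.

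On the CriGri_1.0 assembly Ago4, Ago1 and Ago3 lie on the plus strand of 1 scaffold, JH000238, in this order. Ago4 runs from 1278705 to 1311457 with 29 listed coding exons, Ago1 from 1342423 to 1369258 with 20, and Ago3 from 1381052 to 1470979 with 19. Some listed exons are only a few bases apart. In Ago4 1 ends at 23.515 kb from the start of its model and the next begins at 23.520 kb. Exon counts in this text are therefore counts of listed pieces. The Ago4 model has 982 codons, against 856 for Ago2 and 860 for Ago3, and FPKM and shares depend on this length, which was not checked. The gaps are 31 kb between Ago4 and Ago1 and 11.8 kb between Ago1 and Ago3, and the annotation places 1 other gene between the outer ends of the cluster. The neighbours differed in level and in change: Ago3 fell with either pre-miR, no change was detected for Ago4, and Ago1 between them was near 0. Ago2 lies apart, on JH001423 from 287468 to 328836 on the plus strand, with 18 coding exons.

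**Figure D3:**
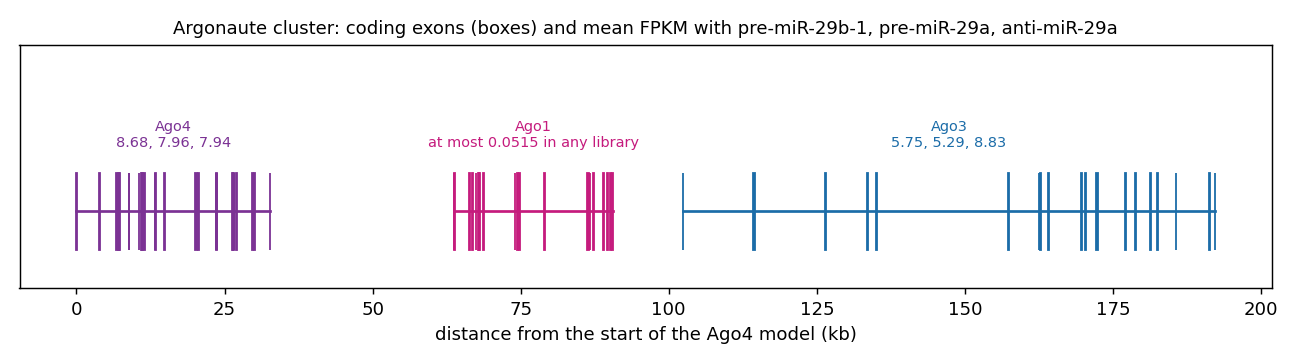
Coding exons as listed in the annotation (boxes) of Ago4, Ago1 and Ago3 against distance in kb from the start of the Ago4 model on 1 scaffold of CriGri_1.0, with the mean FPKM of Ago4 and Ago3 in the pre-miR-29b-1 group, the pre-miR-29a group and the anti-miR-29a group, in this order (n = 3 each). Ago3 has 5.75 FPKM with pre-miR-29b-1, 5.29 FPKM with pre-miR-29a and 8.83 FPKM with anti-miR-29a, and Ago1 reaches at most 0.0515 FPKM in any library.

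The makeup of the summed Argonaute FPKM differed between pre-miRs and anti-miR, while the sum did not move beyond its spread. The 4 Argonautes summed to 37.1 ± 1.8 FPKM with pre-miR-29b-1, to 35.1 ± 4.6 FPKM with pre-miR-29a and to 36.6 ± 1.5 FPKM with anti-miR-29a (SD, n = 3 each). Shares of this sum do not depend on library scaling. Of this sum Ago3 held 14.9% to 16.0% with pre-miR-29b-1 and 14.7% to 15.6% in pre-miR-29a libraries, but 23.4% to 24.9% with anti-miR-29a. Ago2 held 59.5% to 63.5% with pre-miR-29b-1 and 62.0% to 62.6% in pre-miR-29a libraries, but 52.8% to 55.9% with anti-miR-29a. The pre-miR libraries did not overlap the anti-miR-29a libraries in either share. For Ago4 the shares overlapped, at 21.6% to 24.5% with pre-miR-29b-1, 22.3% to 23.0% in pre-miR-29a libraries and 20.0% to 23.0% with anti-miR-29a. Ago1 held at most 0.144%, in 1 anti-miR-29a library. Whether Ago1 reads could be placed on its model was not tested, so the sum and shares may describe Ago2, Ago3 and Ago4 alone. They are of mRNA, and Argonaute protein was not examined here. A share falls when another rises, so these are a description of the mixture and not separate tests of each gene.

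In the GW182 genes, Tnrc6a rose with either pre-miR, Tnrc6b was called higher with pre-miR-29a, and Tnrc6c was not called higher or lower. Tnrc6a (ENSMUSG00000052707) stood at 16.9, 16.2 and 16.5 FPKM with pre-miR-29b-1, at 19.2, 14.5 and 16.4 FPKM with pre-miR-29a, and at 11.1, 11.7 and 12.3 FPKM with anti-miR-29a. Every pre-miR library exceeded every anti-miR-29a library, although pre-miR-29a spread over 14.5 to 19.2 FPKM. Mean FPKM was 41.1% higher with pre-miR-29b-1 than with anti-miR-29a, and 42.5% higher with pre-miR-29a. On the log2 scale the fold change was 0.46 (limma, SE 0.0911, adjusted p 0.00174) with pre-miR-29b-1 and 0.47 (SE 0.0911, adjusted p 0.00148, limma) with pre-miR-29a, the largest rise among the 9 genes.

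Tnrc6b (ENSMUSG00000047888) stood at 11.8, 10.6 and 9.98 FPKM with pre-miR-29b-1, at 11.5, 10.3 and 11.3 FPKM with pre-miR-29a, and at 9.61, 8.93 and 9.44 FPKM with anti-miR-29a. The pre-miR libraries were all higher, the lowest at 9.98 against 9.61 FPKM. The log2 fold change was 0.19 (limma, SE 0.0774, adjusted p 0.0596) with pre-miR-29b-1 and 0.22 (SE 0.0774, adjusted p 0.0343, limma) with pre-miR-29a. The call with pre-miR-29a was lost in 6 of 16 settings, 5 of which dropped 1 library: adjusted p was 0.0763 without pre-miR-29a replicate 1, 0.0911 without its replicate 3, and 0.0513, 0.102 and 0.0698 without anti-miR-29a replicate 1, 2 or 3 (limma). With pre-miR-29b-1 the threshold was passed in 5 of 16, among them without pre-miR-29b-1 replicate 3 (0.24, adjusted p 0.0424, limma). All these values had the same sign.

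Tnrc6c (ENSMUSG00000025571) stood at 5.95, 6.12 and 5.97 FPKM with pre-miR-29b-1, at 6.26, 4.45 and 4.95 FPKM with pre-miR-29a, and at 6.07, 6.004 and 6.27 FPKM with anti-miR-29a. Levels in the pre-miR-29b-1 libraries and the anti-miR-29a libraries were within 0.4 FPKM of each other, and pre-miR-29a replicate 1 lay with them while its replicates 2 and 3 were lower. Its log2 change was -0.02 (limma, 95% interval -0.25 to 0.21, adjusted p 0.881) with pre-miR-29b-1 and -0.20 (95% interval -0.44 to 0.03, adjusted p 0.116, limma) with pre-miR-29a. This result depended on 1 library and on the weighting. Without pre-miR-29a replicate 1, Tnrc6c was lower with pre-miR-29a at -0.32 (adjusted p 0.00529, limma). Under array weights, with no library dropped, it was lower at -0.27 (adjusted p 0.00307, limma), where 71.4% of all tested genes were called. Tnrc6c passed with pre-miR-29a in 2 of 16 alternative settings.

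As a share of the summed Tnrc6 FPKM, Tnrc6a held 48.7% to 50.9% with pre-miR-29b-1 and 49.6% to 51.9% in pre-miR-29a libraries, but 41.4% to 44.0% with anti-miR-29a. Tnrc6c held 17.2% to 18.6% with pre-miR-29b-1, 15.2% to 17.0% in pre-miR-29a libraries and 22.4% to 22.7% with anti-miR-29a. Tnrc6b held between 30.7% and 35.9% in all 9 libraries. The pre-miR and anti-miR-29a libraries did not overlap in the shares of Tnrc6a and Tnrc6c, and overlapped in that of Tnrc6b. Here too a share moves with the others: the level of Tnrc6c was 6.016 FPKM with pre-miR-29b-1 and 6.116 FPKM with anti-miR-29a, so its lower share with pre-miR-29b-1 is no separate change. The summed level was 33.4 ± 1.1 FPKM with pre-miR-29b-1, 32.9 ± 3.9 FPKM with pre-miR-29a and 27.2 ± 0.72 FPKM with anti-miR-29a (SD, n = 3 each), without overlap between the pre-miR and anti-miR-29a libraries.

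**Figure D4:**
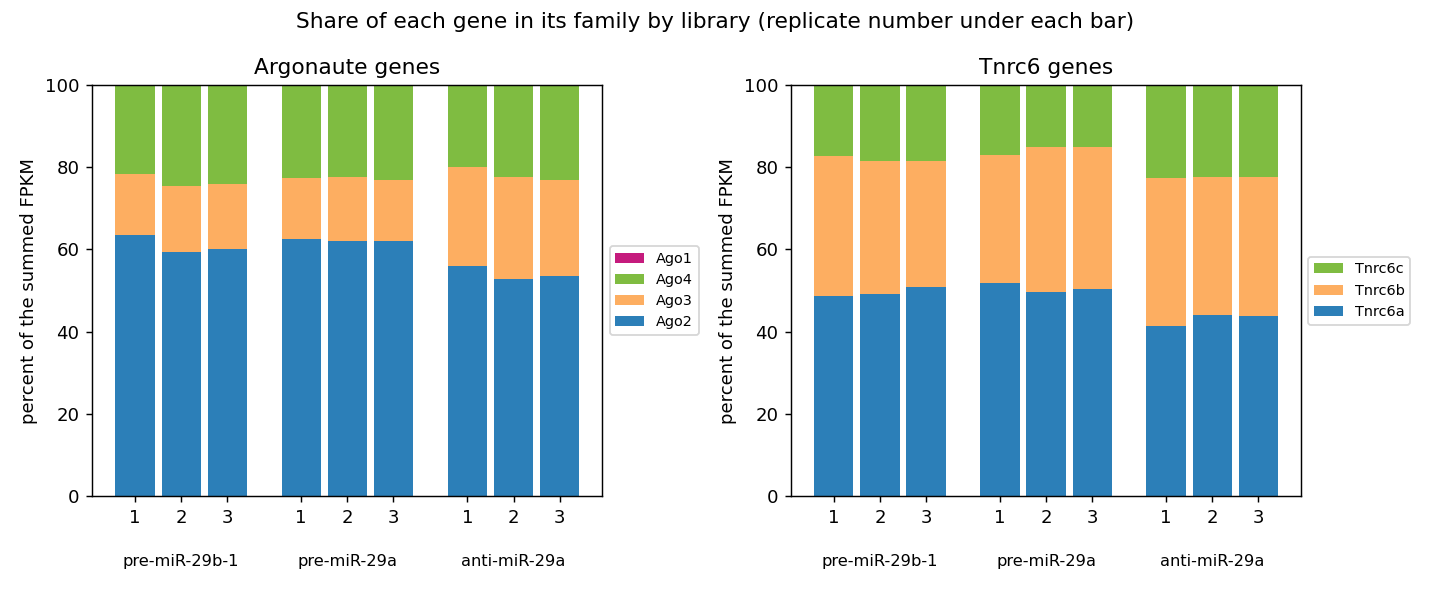
Percent of the summed FPKM (vertical axis, from 0) held by each Argonaute gene on the left and each Tnrc6 gene on the right, 1 bar per library, with the replicate number under each bar. The Ago3 part is 14.7% to 16.0% in the 6 pre-miR libraries and 23.4% to 24.9% in the 3 anti-miR-29a libraries, and Ago1 is too small to be seen.

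Taking the 6 pre-miR libraries against the 3 anti-miR-29a libraries, 6 of the 9 genes were called, where 61.6% of all tested genes were (limma). Dicer1 (log2 fold change 0.39), Drosha (0.18), Tnrc6a (0.47) and Tnrc6b (0.20) were higher, 4 of 9 where 29.3% of all tested genes were, and Dgcr8 (-0.24) and Ago3 (-0.59) were lower, 2 of 9 where 32.3% were. The highest adjusted p among these was 0.023 (limma), for Tnrc6b. The same 6 of the 9 genes had libraries without overlap, where 54.6% of all tested genes, called or not, had. Ago2 (0.16, adjusted p 0.136, limma), Ago4 (0.06, adjusted p 0.567, limma) and Tnrc6c (-0.11, adjusted p 0.299, limma) did not pass. Without anti-miR-29a replicate 2 the calls of Dgcr8 (adjusted p 0.0572, limma) and Tnrc6b (adjusted p 0.0889, limma) were lost, which left 4 of 9 genes. The call of Dgcr8 was also lost without anti-miR-29a replicate 1 (adjusted p 0.0625, limma), and that of Tnrc6b without anti-miR-29a replicate 3 (adjusted p 0.057, limma). Under quantile normalization Dgcr8 was at -0.16 and lost its call too (adjusted p 0.0528, limma). Ago2 passed without pre-miR-29a replicate 2 (0.20, adjusted p 0.0459, limma), under quantile normalization (0.25, adjusted p 0.0134, limma) and under array weights (0.15, adjusted p 0.0264, limma). With the replicate block, given at the end, Ago2 passed in 4 of 18 alternative settings. Tnrc6c passed without pre-miR-29a replicate 1 (-0.17, adjusted p 0.0331, limma) and under array weights (-0.15, adjusted p 0.0309, limma). Dicer1, Drosha, Ago3 and Tnrc6a were past the threshold in all 18 alternative settings.

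The changes put some genes in another order. Tnrc6a averaged 16.5 ± 0.327 FPKM with pre-miR-29b-1, 16.7 ± 2.35 FPKM with pre-miR-29a and 11.7 ± 0.621 FPKM with anti-miR-29a, while Dgcr8 averaged 13.8 ± 0.584 FPKM with pre-miR-29b-1, 14.2 ± 1.12 FPKM with pre-miR-29a and 16.7 ± 1.37 FPKM with anti-miR-29a (SD, n = 3 each). Tnrc6a was thus above Dgcr8 in 5 of 6 pre-miR libraries and below it in all 3 anti-miR-29a libraries. Likewise Ago4 exceeded Ago3 in FPKM in all 6 pre-miR libraries, and Ago3 exceeded Ago4 in all 3 anti-miR-29a libraries. In anti-miR-29a replicate 3 the margin was small, at 8.38 FPKM for Ago3 against 8.25 FPKM for Ago4. There Ago4 had more implied reads, 431 against 384 for Ago3. The order of these genes thus depends on the lengths of their models, which were not checked.

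Between the pre-miRs, no gene of the machinery passed the threshold. For pre-miR-29b-1 relative to pre-miR-29a, 0 of 9 genes were called by limma and 0 had an unadjusted p under 0.05, where 0.0105% of all tested genes were called and 16.5% had an unadjusted p under 0.05. The libraries overlapped for all 9 genes, while 18.9% of all tested genes were without overlap. The largest difference was that of Tnrc6c, 0.18 on the log2 scale (95% interval -0.05 to 0.42, adjusted p 0.381, limma), or up to 1.33-fold higher with pre-miR-29b-1. For Dicer1 the difference was -0.05 (95% interval -0.18 to 0.09), for Ago3 0.11 (-0.08 to 0.29) and for Tnrc6a 0.00 (-0.21 to 0.20). The intervals of Ago2, Ago3, Ago4 and Tnrc6c reached past 0.24, the called change of Drosha with pre-miR-29a, and those of the other 5 genes did not reach that size in either direction. A difference that misses the threshold does not show that the pre-miRs act alike. Under array weights Drosha was called, and so was Tnrc6c (0.25, adjusted p 0.0119, limma), which makes 2 of 9 genes where 38.2% of all tested genes were called. Without pre-miR-29a replicate 1, Tnrc6c was called higher with pre-miR-29b-1 (0.30, adjusted p 0.0377, limma), in a setting in which 14.4% of all tested genes were called.

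**Figure D5:**
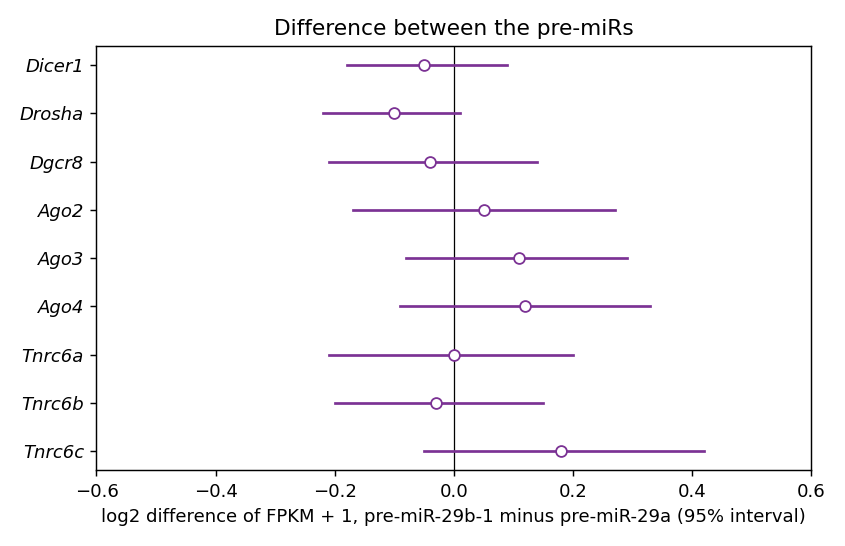
Log2 difference of FPKM + 1, pre-miR-29b-1 minus pre-miR-29a, with its 95% interval (horizontal axis) for the 9 tested genes (vertical axis), n = 3 libraries a group. All intervals include 0, and that of Tnrc6c reaches farthest, to 0.42.

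The spread within the pre-miR-29a group was wider than in the others for several genes. How many of all tested genes were likewise widest in this group was not counted. The spread is therefore not shown to be particular to this machinery. For Tnrc6c the coefficient of variation was 18.0% with pre-miR-29a, against 1.55% with pre-miR-29b-1 and 2.29% with anti-miR-29a. For Tnrc6a it was 14.1% with pre-miR-29a, against 1.98% with pre-miR-29b-1 and 5.30% with anti-miR-29a. Ago4 (13.9%), Ago2 (13.6%), Ago3 (10.1%) and Drosha (4.99%) were likewise widest with pre-miR-29a. Dicer1 (2.42%) and Tnrc6b (5.82%) were not, with 4.38% and 8.56% in the pre-miR-29b-1 group. Nor was Dgcr8 (7.89%), with 8.21% in the anti-miR-29a group. Replicate 1 was the highest of the 3 pre-miR-29a libraries for 7 of 9 genes, as for 39.5% of all tested genes, and replicate 2 the lowest for 6 of 9, as for 34.8%. This includes Ago2, Ago3, Ago4, Tnrc6a and Tnrc6c, which were all highest in replicate 1 and lowest in replicate 2. The shares within the Argonautes were steadier than the levels in this group. Array weights, estimated from all tested genes, gave pre-miR-29a replicate 1 the lowest weight of the 9 libraries, 0.213. What set these libraries apart was not tested.

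The genes outside the Argonaute family lie on separate scaffolds. Dicer1 lies on scaffold JH000962 at 209386 to 247419, minus strand, with 26 exons and 5754 coding bases. Drosha lies on JH000279 from 225612 to 327819 on the plus strand with 32 exons and 4101 coding bases, and Dgcr8 on JH000319 from 1034189 to 1058289 on the plus strand with 13 exons and 2322 coding bases. Tnrc6a (JH001689, 77713 to 128957, plus strand, 21 exons), Tnrc6b (JH000810, 457107 to 515808, plus strand, 20 exons) and Tnrc6c (JH000126, 689562 to 759381, minus strand, 21 exons) have 5232 to 5667 coding bases. Ago3 and Tnrc6a are each listed as 2 models with identical exons, and no gene of the set shares exon bases with another gene. The models hold coding sequence alone, so the untranslated regions, where microRNA sites are usually found, were not measured.

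By pattern over the 9 libraries, the gene most like Ago3, which had the smallest adjusted p of the set, was ENSMUSG00000046169 (Pearson's r 0.996 over 9 libraries on log2(FPKM + 1), among 9503 other tested genes). It stood at 6.18 ± 0.533 FPKM with pre-miR-29b-1, 5.56 ± 1.25 FPKM with pre-miR-29a and 14 ± 0.69 FPKM with anti-miR-29a (SD, n = 3 each). Next was ENSMUSG00000014547 (r 0.995), at 23.4 ± 0.895 FPKM with pre-miR-29b-1, 21.5 ± 1.42 FPKM with pre-miR-29a and 34.6 ± 1.72 FPKM with anti-miR-29a (SD, n = 3 each). Both genes, like Ago3, had a higher mean with anti-miR-29a than with either pre-miR, so these r mostly restate that shared step. Neither gene has a name in the sources used here.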

How the data were processed

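The deposited FPKM values came as 1 table of 15557 identifiers. Per the submitters' processing notes, the tools were FastQC, TopHat2 2.0.13 for alignment and Cuffnorm for FPKM. Scaling, strand setting, filters and the Cuffnorm version were not given in the sources used here. Per the file headers, models are mouse Ensembl release 66 proteins placed on CriGri_1.0, and 99.87% of their lengths were multiples of 3, so that FPKM are per coding length. Stranded poly(A) libraries from 2 µg of RNA were read once for 75 to 76 cycles, per the labels' protocols.

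From these values, the 9504 genes averaging 1 FPKM or more were tested with limma 3.58.1 (R 4.3.3) on log2(FPKM + 1), with trended moderation, 1 term per group, all 9 libraries in the fit, two-sided p-values and Benjamini-Hochberg adjustment within a comparison. The fit was checked on simulated data. Implied depth came from 1156 genes of 3000 or more coding bases, each with a single model and no bases in common with another gene. Of their values of at most 5 reads, 99.1% to 100% came within 0.2 of a whole read. Read limits cover counting error alone.

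The genes, lists and alternatives were chosen with earlier results of these data known. All 10 genes are named whatever their values, plus the genes most like the one with the smallest adjusted p. A list of further pathway genes was not tested, since 0 of the table's identifiers matched the 32251 RefSeq genes of CriGri-PICRH-1.0, and the cell type was not checked by markers for the same reason. No sequences are shown.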

Additional observations from a re-analysis of the deposited data

How the results depend on the processing

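Alternatives changed the pseudocount (0.1 or 5), the filter (none or 5 FPKM), the scaling, the moderation, library weights, which libraries entered the fit and the replicate block, or dropped 1 library at a time. The calls of Dicer1, Ago3 and Tnrc6a relative to anti-miR-29a held in each. For pre-miR-29b-1, 4 of 9 genes were called relative to anti-miR-29a, where 55.2% of all tested genes were. With quantile normalization 7 were called, where 59.4% of all tested genes were, and with array weights 7 were, where 68.5% of all tested genes were. Dropping 1 library gave 3 to 4 genes called for pre-miR-29b-1, for pre-miR-29a 4 to 6, for both pre-miRs 4 to 7, and between the pre-miRs 0 to 1. Over all tested genes it gave 4504 to 4785 for pre-miR-29b-1, for pre-miR-29a 4856 to 5876, for both 5088 to 6224, and between the pre-miRs 1 to 1370, the highest without pre-miR-29a replicate 1. Quantile normalization turned the balance of all called genes relative to anti-miR-29a, to 3170 higher and 2474 lower for pre-miR-29b-1, where 2451 were higher and 2795 lower before, and to 3340 higher and 2494 lower for pre-miR-29a, where 2613 were higher and 2940 lower before, but no called gene of the machinery changed direction.

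Between the pre-miRs 1 gene of all tested was called, against 3627 under array weights, 184 under the replicate block, 0 under unmoderated variances and 0 in a fit of those groups alone. Of the machinery, 2 genes (Drosha at -0.19 and Tnrc6c at 0.25) were called under array weights. Of the uncalled differences between the pre-miRs, Dgcr8 became positive under array weights (0.04), Ago2 ranged over -0.03 to 0.15 and Tnrc6b over -0.09 to 0.02 on dropping 1 library. The cause was not tested.

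Under the replicate block, 6 of the 9 genes were called for pre-miR-29b-1, where 58.4% of all tested genes were, and 6 for pre-miR-29a, where 61.8% were. For both pre-miRs 7 were called, where 64.9% of all tested genes were, and between the pre-miRs 0, where 1.94% were. Ago2 then passed for pre-miR-29b-1 (adjusted p 0.0328, limma) and for both (adjusted p 0.0312, limma). Tnrc6b passed for pre-miR-29b-1 as well (adjusted p 0.0448, limma). Same-numbered libraries correlated at r of -0.02 to 0.29, with 6 of 9 pairs over 0.1, so the main fit does not take the numbers as pairs. Even so, 9 of 9 libraries correlated best with their own number, and what same-numbered libraries share was not tested.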
